A study of Mus musculus with 6 samples.

Results

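MHC class I presentation and the immunoproteasome were followed here through 10 genes: H2-K1, H2-D1, B2m, Tap1, Tap2, Tapbp, Psmb8, Psmb9, Psmb10 and Nlrc5. They were taken from the array annotation by symbol, and only probe sets paired with 1 gene symbol were used. This gave 10 of the 18193 genes and 27 of the 34945 such probe sets, and the brightest probe set of a gene, by its mean of the 6 arrays, stood for that gene. Livers of male C57BL/6 mice aged 6 weeks were measured on Affymetrix arrays, 1 array per mouse. In 3 mice p14 was deleted conditionally in the liver (KO 1 to KO 3), and 3 control mice labelled p14 WT (WT 1 to WT 3) carried no other stated allele or treatment. p14 is the product of Lamtor2, an adaptor of late endosomes. The promoter that drove the deletion, and whether controls carried a conditional allele, are not given in the sources used here. Each value below is a log2 expression level after the GCRMA procedure, and each difference is KO minus WT on that scale.

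Class I molecules show peptides from a cell's own proteins to CD8 T cells and, through their mere presence, restrain natural killer cells. Peptides are cut in the cytosol by the proteasome, carried into the endoplasmic reticulum by the transporter TAP and loaded onto a heavy chain paired with beta-2-microglobulin. Interferon-gamma raises most genes of this route, among them the subunits of the immunoproteasome, which take the place of constitutive catalytic subunits. In the liver hepatocytes carry little class I in the resting state compared with sinusoidal endothelium and Kupffer cells, the resident macrophages.

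Upstream sequence of the genes is shown first, because several of them share control elements that the choice of genes did not use. RefSeq promoter windows of GRCm38.p6, from 250 bases before to 50 bases after a start, were found for 8 of the 10 genes. Both strands were searched for the interferon-stimulated response element (TTTC, any 2 bases, TTTC), the interferon-gamma activated site TTCNNNGAA, the CCAAT box, the cAMP response core TGACG and the NF-kappa-B consensus. Capitals mark every match in the sequences below, which are printed 5′ to 3′ and end at the base before the gene start, except the short stretches of H2-K1 and Psmb8.
H2-D1, chr17:35262844-35263093, plus strand: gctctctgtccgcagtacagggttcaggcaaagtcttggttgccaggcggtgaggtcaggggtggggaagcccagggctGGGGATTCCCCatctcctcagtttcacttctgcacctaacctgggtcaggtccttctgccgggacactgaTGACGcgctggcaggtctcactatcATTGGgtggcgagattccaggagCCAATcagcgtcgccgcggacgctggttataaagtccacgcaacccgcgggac
H2-K1, chr17:34000439-34000468, minus strand: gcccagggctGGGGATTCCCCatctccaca
B2m, chr2:122147437-122147686, plus strand: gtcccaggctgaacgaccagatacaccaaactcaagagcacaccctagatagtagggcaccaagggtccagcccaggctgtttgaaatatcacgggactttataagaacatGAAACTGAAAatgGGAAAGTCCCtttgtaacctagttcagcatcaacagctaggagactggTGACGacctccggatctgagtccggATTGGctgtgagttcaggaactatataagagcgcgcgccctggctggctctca
Psmb9 to Tap1, chr17:34187331-34187555, strand of Tap1: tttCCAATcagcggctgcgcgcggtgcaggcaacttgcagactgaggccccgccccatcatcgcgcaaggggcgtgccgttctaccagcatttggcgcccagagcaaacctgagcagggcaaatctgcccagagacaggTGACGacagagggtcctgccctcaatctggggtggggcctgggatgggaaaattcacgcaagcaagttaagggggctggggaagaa
Psmb8, chr17:34198088-34198117, plus strand: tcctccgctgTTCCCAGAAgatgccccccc

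The heavy chain genes H2-D1 and H2-K1 held the same 11 capital bases, where 2 matches to the NF-kappa-B consensus overlap. The B2m sequence above held, in order, a response element, an NF-kappa-B match, TGACG and a CCAAT box, with the response element, the NF-kappa-B match and the CCAAT box on the opposite strand. Psmb9 and Tap1 start on opposite strands 225 bases apart, so the same interval lies upstream of both. The NF-kappa-B consensus was matched for 3 of 8 genes with a window, against 4.51% of 32851 windows of all genes. Among these 3 genes, H2-D1 and H2-K1 share the 11 bases above. A gene was counted if any of its windows matched (9 windows for the 8 genes), while the shares are per window, so the units differ. TGACG was matched for 5 of 8 (20.8% of windows) and CCAAT for 6 of 8 (37.4%), where Psmb9 and Tap1, which share 1 interval, were counted as 2 genes. The response element was matched for B2m alone among the 8 (3.44% of windows) and the activated site for Psmb8 alone (8.3%). Only exact matches were counted, so an element that departs from its pattern stays in lower case. The stretch tttcacttct of H2-D1, which resembles the response element, was not counted for this reason. A match describes letters in a window and is no evidence of binding.

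The targeted gene and the arrays that stand apart are given before the class I values. Lamtor2 measured 10.08, 10.19 and 10.11 in KO and 11.32, 11.29 and 11.35 in WT, a difference of -1.19 (limma adjusted p = 0.0104), so every KO array lay below every WT array. That call was lost without KO 2, WT 1, WT 2 or WT 3 (limma adjusted p = 0.0505 to 0.114), where the difference was -1.18 to -1.23, and without both KO 3 and WT 2 (0.114 by limma). KO 3 correlated over genes as closely with the WT arrays (mean r = 0.987) as with the other KO arrays (0.986). The skeletal muscle list averaged 10.90 on WT 2 and 2.35 to 2.48 on the other arrays. The manufacturer's 18S rRNA controls were 0.803 higher in KO. The number of arrays limits the precision. Each limma p-value sets a group difference against the spread between these mice only, with that spread drawn toward a value estimated from all genes tested.

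No class I gene changed in KO livers by the test over all genes, and the differences were small. Expression was lower in KO for 9 of the 10 genes, or 8 of 10 after median centring of the arrays, where B2m turned to 0.01. The levels ran from 73.6% of WT for Nlrc5 to 101.7% for H2-D1. The median difference was -0.21, against -0.04 over all 10009 genes tested, of which 58.4% were lower in KO. The groups overlapped for 9 of the 10 genes, and Tapbp was the exception.

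Limma called 0 of the 10 genes at a Benjamini-Hochberg adjusted p under 0.05, while 17 of 10009 genes (0.17%) were called in all. At an unadjusted p under 0.05 there was 1 class I gene, Nlrc5, against 14.5% of all genes tested. Groups that did not overlap, with KO lower, were found for 1 of the 10 genes and for 14% of all genes. Both counts are near the share over all genes. The 95% intervals of the 10 differences lay between -0.94 and 0.62 on the probe sets used. None of these reached a 2-fold difference in either direction, while 1 further H2-D1 probe set had a wider interval, given below. The median was -0.33 without KO 2, -0.14 without WT 2 and -0.10 without both KO 3 and WT 2.

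**Figure D1:**
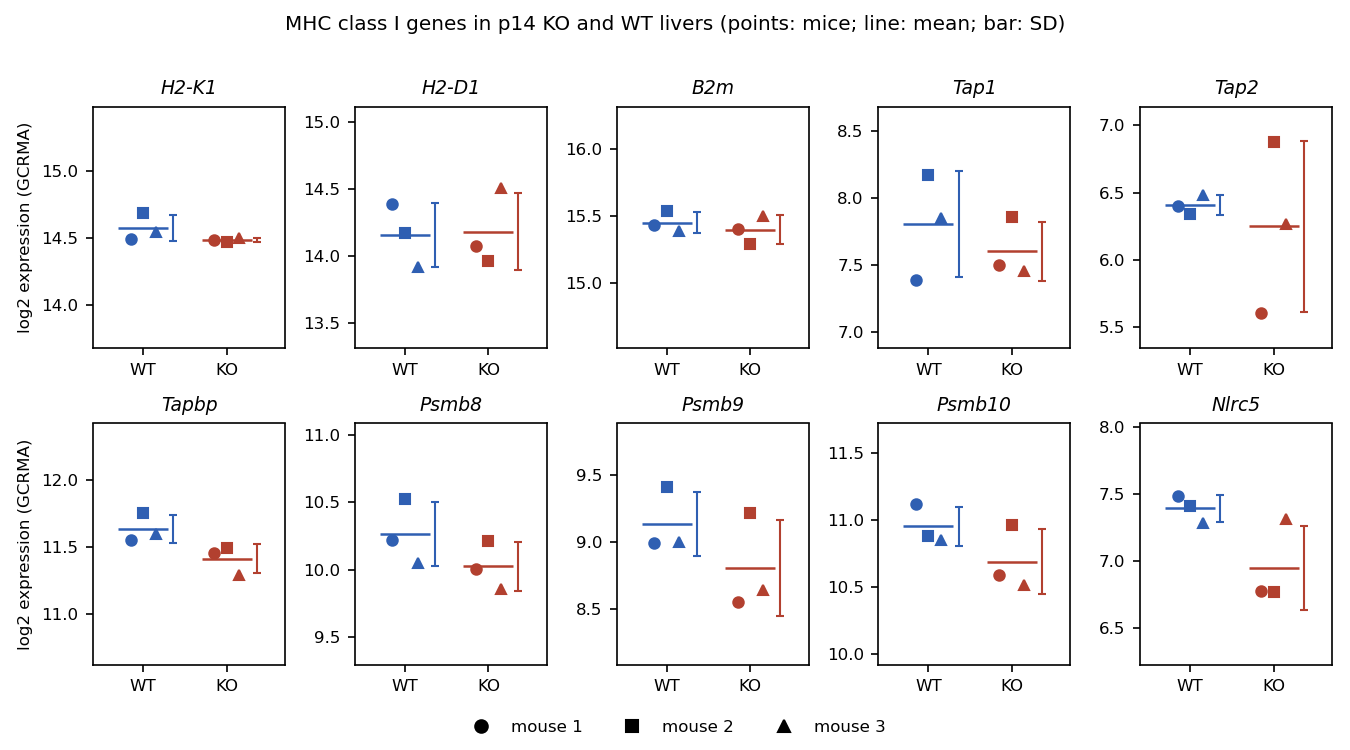
Log2 expression of the 10 class I genes, 1 panel per gene, with WT mice in blue and KO mice in red, the mean as a line and the SD as a bar (n = 3 each); each panel spans the same number of log2 units. Points of the groups overlap in every panel except that of Tapbp.

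The probe sets used for the chains of the class I molecule itself had group means within 0.1 of each other. They lay near the top of the scale, whose highest value was 16.327, and whether differences shrink there was not tested. H2-K1, the K heavy chain, measured 14.48, 14.47 and 14.50 in KO and 14.49, 14.68 and 14.55 in WT. The WT 2 array was the high one, and the others lay within a narrow band in which the groups overlapped. The difference was -0.09 (95% interval -0.27 to 0.09, limma adjusted p = 0.56). H2-D1, the D heavy chain, measured 14.07, 13.96 and 14.51 in KO and 14.39, 14.17 and 13.92 in WT. KO 3 was highest and WT 3 lowest, and the group means of 14.18 ± 0.29 and 14.16 ± 0.24 (SD, n = 3 each) nearly coincided. Its difference of 0.02 (95% interval -0.44 to 0.49, limma adjusted p = 0.963) turned to -0.14 without KO 3 and to -0.10 without WT 3.

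B2m encodes beta-2-microglobulin, the light chain that every classical class I molecule needs to reach the cell surface. It measured 15.40, 15.29 and 15.50 in KO and 15.43, 15.54 and 15.39 in WT, with KO 1 and KO 3 inside the WT range. The difference was -0.05 (95% interval -0.26 to 0.15, limma adjusted p = 0.771). The second B2m probe set differed by -0.03. The brighter B2m probe set lay above 99.88% of all probe sets by its mean of the 6 arrays.

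Probe sets of the heavy chains differed between mice of the same genotype. H2-D1 had 9 probe sets, of which 5 passed the filter, and H2-K1 had 4, which all passed. Of these 9 past the filter, 8 belong to a class of probe sets (suffix _x_at) whose probes may also match other transcripts, and classical heavy chains are near-identical over long stretches. A further 3 probe sets that held a class I gene were paired with several symbols and were not used. KO 3 and WT 1 were the highest pair of arrays in 4 of the 5 H2-D1 probe sets.

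The 1 H2-D1 probe set past the filter without that suffix measured 7.27, 7.49 and 8.61 in KO and 8.58, 7.69 and 7.66 in WT. KO 3 and WT 1 were thus close to each other and apart from the other mice, and the genotype difference of -0.18 was small beside that spread (limma adjusted p = 0.854 over 17316 probe sets). Whether the heavy chain probe sets match the transcripts of every mouse equally well was not tested, so a value of H2-D1 or H2-K1 is a signal of its probe set and may not be the amount of transcript. One H2-K1 probe set had the same order at its top, with 14.29 on KO 3 and 14.12 on WT 1 against 13.55 to 13.93 on the other arrays. The brightest H2-K1 probe set did not, since KO 3 and WT 1 measured 14.50 and 14.49 there. Differences of all 19 class I probe sets past the filter ran from -0.44 to 0.18, 0 of them called in limma (smallest adjusted p = 0.334, 1 at an unadjusted p under 0.05).

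**Figure D2:**
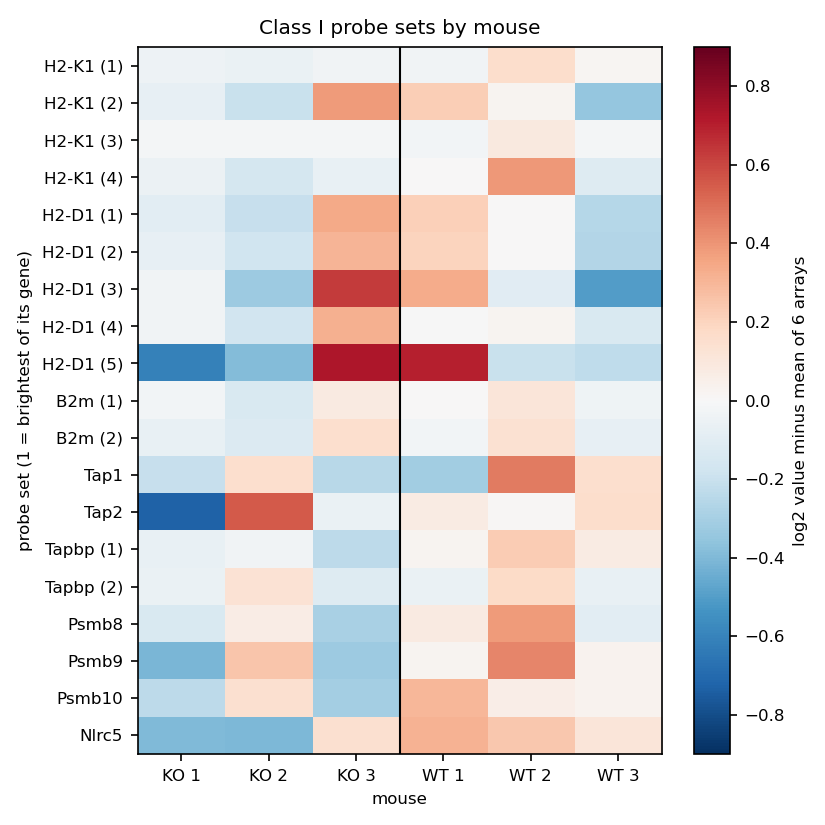
Log2 value minus the mean of the 6 arrays for the 19 class I probe sets past the filter, with KO mice left and WT mice right of the line and probe sets of a gene numbered from the brightest. H2-D1 is high on KO 3 and WT 1, while Tap1, Psmb8 and Psmb9 are highest on WT 2.

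The peptide transporter and its partner were lower by small amounts. Tap1 and Tap2 encode the subunits that pair to form the TAP transporter. Tap1 measured 7.49, 7.85 and 7.45 in KO and 7.38, 8.17 and 7.85 in WT, so the lowest array and the highest array were both WT. The difference was -0.20 (95% interval -0.75 to 0.36, limma adjusted p = 0.683). It ran from -0.41 without WT 1 to -0.02 without WT 2, and was 0.06 without both KO 3 and WT 2. The other 3 Tap1 probe sets lay at the bottom of the scale on every array and gave no information.

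Tap2 measured 5.60, 6.88 and 6.27 in KO and 6.40, 6.34 and 6.49 in WT. KO 1 was the lowest and KO 2 the highest of all 6, with an SD of 0.64 in KO against 0.07 in WT (n = 3 each). Its interval was the widest of the 10, from -0.94 to 0.62 around -0.16 (limma adjusted p = 0.819), and the difference was 0.16 without KO 1.

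Tapbp encodes tapasin, which bridges TAP and the empty heavy chain and edits the bound peptide. It measured 11.46, 11.49 and 11.29 in KO and 11.55, 11.75 and 11.60 in WT, the 1 class I gene with every KO array below every WT array. The difference was -0.22 (95% interval -0.44 to 0.00, unadjusted p = 0.0528 in limma, adjusted p = 0.345). The second Tapbp probe set, at 8.63, 8.82 and 8.57 in KO and 8.63, 8.86 and 8.62 in WT, differed by -0.03, and its groups overlapped.

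The immunoproteasome subunits were lower in KO by similar amounts, none of them called. Psmb8 encodes the chymotrypsin-like subunit LMP7 and measured 10.01, 10.21 and 9.85 in KO and 10.22, 10.52 and 10.05 in WT. Psmb9 encodes LMP2 and measured 8.56, 9.22 and 8.64 in KO and 8.99, 9.41 and 9.0 in WT. For Psmb10, which encodes MECL-1, the values were 10.59, 10.96 and 10.52 in KO and 11.12, 10.88 and 10.85 in WT. In each of the 3 genes KO 2 lay within the WT range and the other KO arrays lay below the WT mean.

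The differences were -0.24 for Psmb8 (95% interval -0.62 to 0.14), -0.33 for Psmb9 (-0.86 to 0.20) and -0.26 for Psmb10 (-0.62 to 0.10), with limma adjusted p of 0.494, 0.497 and 0.438. With 1 array left out, Psmb8 ran from -0.35 (without WT 3) to -0.11 (without WT 2), Psmb9 from -0.54 (without KO 2) to -0.19 (without WT 2) and Psmb10 from -0.40 (without KO 2) to -0.18 (without KO 3 or WT 1). Without KO 2 the unadjusted p in limma was 0.0227 for Psmb9 and 0.0169 for Psmb10, with adjusted p of 0.376 and 0.357. Without both KO 3 and WT 2 the differences of the 3 genes were -0.02, -0.11 and -0.21. The second Psmb8 probe set lay below a log2 value of 4 on every array.

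Each immunoproteasome subunit was also set against the constitutive subunit it replaces, as a difference within each array whose level has no meaning of its own. The constitutive subunits Psmb5, Psmb6 and Psmb7 differed by -0.06, -0.07 and 0.10. Psmb8 minus Psmb5 was lower in KO by -0.18, Psmb9 minus Psmb6 by -0.26 and Psmb10 minus Psmb7 by -0.36. Means were -2.05 ± 0.23 in KO and -1.87 ± 0.22 in WT for Psmb8 minus Psmb5, -3.12 ± 0.41 and -2.87 ± 0.25 for Psmb9 minus Psmb6, and -2.80 ± 0.27 and -2.44 ± 0.22 for Psmb10 minus Psmb7 (SD, n = 3 each). Exact two-sided permutation tests gave p = 0.4, 0.4 and 0.3 for the 3 pairs, and 0.4 for each after Benjamini-Hochberg adjustment; the smallest p this design allows is 0.1. With that limit no pair could pass a threshold of 0.05, so these p-values decide nothing. The differences were -0.30, -0.49 and -0.52 without KO 2, and -0.07, -0.11 and -0.45 without WT 2.

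Nlrc5, the transactivator that switches on class I genes together with B2m, Tap1 and Psmb9, had the largest difference of the 10. It measured 6.78, 6.77 and 7.32 in KO and 7.49, 7.41 and 7.28 in WT. KO 1 and KO 2 lay below all WT arrays, and KO 3 lay between WT 3 and WT 2. The difference was -0.44 (95% interval -0.86 to -0.03, unadjusted p = 0.0409 and adjusted p = 0.333 in limma), or 73.6% of the WT level. Without KO 3 it was -0.62 with a limma adjusted p of 0.0585, still above the threshold. That setting called many more genes over the whole table, as given below. Over all alternatives the adjusted p of Nlrc5 ran from 0.0585 to 0.684, both in limma. Nlrc5 had 1 probe set.

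**Figure D3:**
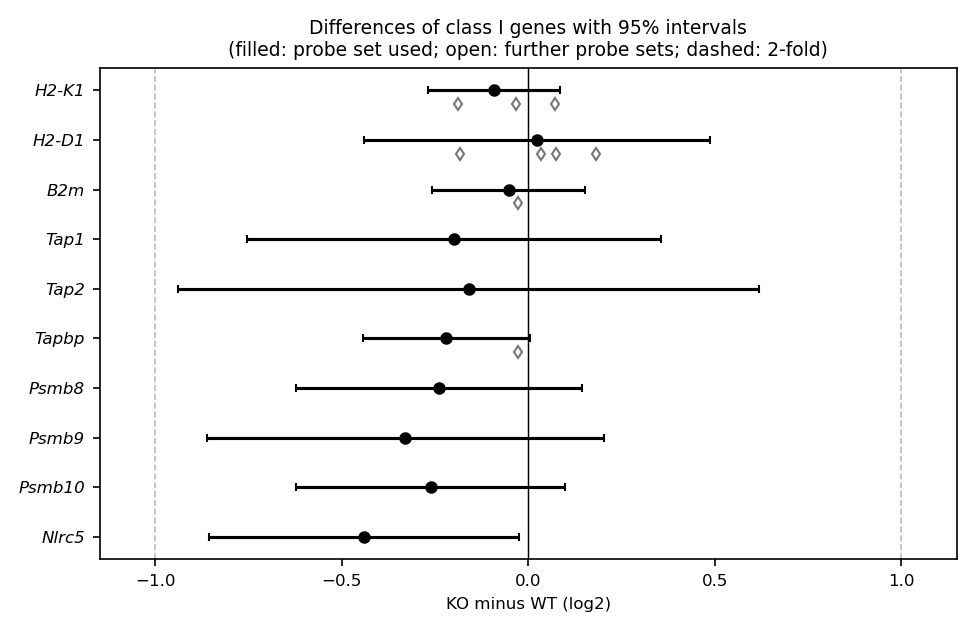
KO minus WT difference (log2) of each class I gene with its 95% interval from limma, and further probe sets past the filter as open diamonds. Intervals are drawn for the probe set used only. Those of 9 of the 10 genes include 0 and all 10 lie inside the dashed lines at a 2-fold difference.

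The order of the KO mice differed between class I genes. KO 2 was the highest KO array for 6 of 6 loading and immunoproteasome genes (Tap1, Tap2, Tapbp, Psmb8, Psmb9 and Psmb10), and KO 3 for 4 of 4 others (H2-K1, H2-D1, B2m and Nlrc5). Over all genes tested KO 2 was the highest KO array in 33.1% and KO 3 in 34.9%. For H2-K1 this rests on 14.50 against 14.48 on KO 1, and 2 of its other 3 probe sets past the filter had KO 1 highest. The pattern was noted after the values were seen and was not tested. Interferon-stimulated genes had KO 3 highest in 18 of 19 and macrophage markers in 19 of 19. Irf1, the interferon-induced factor that acts on several of these promoters, was chosen after its values were seen and had KO 2 highest, with 9.59, 10.03 and 9.37 in KO and 9.89, 10.08 and 9.54 in WT (difference -0.17, limma adjusted p = 0.708). Among all 24 regulators of class I genes tested, KO 1, KO 2 and KO 3 were each the highest KO array in 8, so Irf1 does not stand for its list. WT 2, the array with muscle transcripts, was the highest of all 6 for 6 of the 10 class I genes. Among the WT arrays alone it was highest for 6 of the 10, for 18 of 19 interferon-stimulated genes and for 2407 of 10009 genes tested. The part of muscle transcripts in the class I values was not tested.

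Other genes of the pathway were read from lists by role. Of 30 other class I heavy chains and class I-like genes, 15 had a probe set of their own and 9 passed the filter, with 0 called in either direction and a median of 0.01. H2-Q10, a secreted class I protein typical of liver and chosen after its values were seen, measured 14.91, 14.85 and 14.82 in KO and 14.72, 14.86 and 14.93 in WT. The groups overlapped, with a difference of 0.02 (95% interval -0.17 to 0.22). The smallest p among these belonged to H2-Bl at 0.41 (limma adjusted p = 0.355), H2-Q5 at 0.66 (0.516 by limma) and H2-M3, which presents formylated peptides, at -0.44 (0.54 by limma).

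Peptide trimming and loading genes had a median of 0.03 over 16 genes, 6 lower and 10 higher, 0 called. Lap3, the interferon-inducible leucine aminopeptidase, stood at 0.29 with every KO array above every WT array (13.28 to 13.38 against 12.79 to 13.15). Npepps, the puromycin-sensitive aminopeptidase, stood at -0.25, and Tpp2, tripeptidyl peptidase II, at 0.20, with limma adjusted p of 0.343 to 0.397 for these 3. The 14 constitutive 20S proteasome subunits had a median of -0.04 and the 21 subunits of the 19S regulatory particle of 0.01, 0 called in either. Differences ran from -0.13 to 0.20 in the 20S list, where Psma5, Psma6 and Psma4 had the smallest p at 0.17, -0.11 and 0.20. Those of the 19S list ran from -0.17 to 0.13, with Psmd10 at 0.11, Psmd3 at -0.17 and Psmd14 at -0.12. Each immunoproteasome difference was thus below the lowest of the 20S list, a comparison of sizes with no test. The immunoproteasome genes also varied more between mice, with an SD within groups in limma of 0.18 to 0.26 against 0.07 to 0.16 in the 20S list.

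Proteasome activators and assembly factors had a median of 0.05 over 9 genes, 0 called. Psme1, a subunit of the PA28 cap that interferon-gamma induces with the immunoproteasome, measured 11.60, 11.61 and 11.73 in KO and 11.77, 11.90 and 11.96 in WT. Every KO array lay below every WT array, and the difference was -0.23 (95% interval -0.43 to -0.03, unadjusted p = 0.0295 and adjusted p = 0.305 in limma). Psmg2, an assembly chaperone, stood at 0.37 (limma adjusted p = 0.282) and Psmg4, another, at -0.14 (limma adjusted p = 0.386).

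Regulators of class I genes, from interferon receptors to the factors of the promoter complex, had a median of -0.05 over 24 genes, 17 lower and 0 called. Irf8, a factor of macrophages and dendritic cells, measured 5.74, 6.44 and 6.43 in KO and 6.96, 6.86 and 6.99 in WT, a difference of -0.73 (limma adjusted p = 0.255). Ifngr1, the ligand-binding chain of the interferon-gamma receptor, measured 8.09, 8.34 and 8.62 in KO and 8.76, 8.72 and 8.69 in WT, a difference of -0.37 (limma adjusted p = 0.329). Tyk2, a kinase of interferon receptors, stood at -0.28 (limma adjusted p = 0.304). These 3 had the smallest p of the list, and in each every KO array lay below every WT array. In the whole list this held for 5 of 24 genes, with 1 gene the other way round, against 14% of all genes with KO lower.

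MHC class II, interferon-stimulated and macrophage genes had larger median differences between the same mice. Of 6 class II genes tested, 6 were lower and 0 called, with a median of -0.91 against -0.21 for class I. Cd74, the invariant chain, measured 8.94, 9.36 and 9.57 in KO and 10.37, 10.25 and 10.60 in WT (difference -1.12, limma adjusted p = 0.138). H2-Aa and H2-Ab1, the chains of I-A, stood at -0.95 and -1.10. Of 19 interferon-stimulated genes 19 were lower and 0 called, with a median of -0.58, among them Gbp2 at -2.05, Cxcl10 at -1.55 and Cxcl9 at -1.25. On the probe sets used, none of the 10 class I intervals reached -1, though that of 1 further H2-D1 probe set, given above, did. The Cd74 interval, that of the smallest p in its list, ran from -1.57 to -0.66 and overlapped that of Nlrc5 (-0.86 to -0.03). Of the other class II genes H2-Eb1 stood at -0.86 (95% interval -1.75 to 0.03). H2-DMa at -0.43 and H2-DMb2 at -0.004 lay within the range of the class I differences. Whether class I and class II differ from each other in their response was not tested.

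Markers of the cells that carry much class I are given beside these values. Of 20 macrophage markers 19 were tested, 19 were lower and 0 called, with a median of -0.86. Their mean level was 7.91 to 9.03 on KO arrays and 9.26 to 9.36 on WT arrays, and only Itgam lay below a log2 value of 4 on every array. Csf1r, the receptor that macrophages need to survive, measured 11.21, 11.50 and 12.13 in KO and 12.25, 12.29 and 12.37 in WT, a difference of -0.69 (limma adjusted p = 0.304). Without KO 3 it was -0.95 and passed the test (limma adjusted p = 0.0437), in a setting that called many more genes over the whole table, as given below. Slc40a1, the iron exporter ferroportin, stood at -0.19. Of 20 endothelial markers 18 were lower, with a median of -0.36 and mean levels of 8.19 to 8.54 in KO and 8.76 to 8.85 in WT. Lyve1 at -1.32 and Thbd at -0.95 fell (limma adjusted p = 0.0353 for each). Both calls were kept without KO 3 and lost when any other single array was left out (limma adjusted p = 0.129 to 0.202). They were also lost with no filter on dim genes (limma adjusted p = 0.169 for Lyve1 and 0.148 for Thbd), with an ordinary two-sample test (adjusted p = 0.196 and 0.181), with the replicate number as a block (limma adjusted p = 0.116 and 0.216) and without both KO 3 and WT 2 (limma adjusted p = 0.0806 and 0.124).

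Lymphocyte, natural killer and dendritic cell markers were mostly dim: 14 of the 21 with a probe set lay below 4 on every array, among them Cd3e, Cd8a and Ncr1, and 6 were tested with a median of -0.51, 4 of them lower. Mean levels of that list were 3.40 to 3.62 in KO and 3.59 to 3.84 in WT. Stellate cell markers had a median of -0.39 and hepatocyte markers of 0.01. The hepatocyte list averaged 15.20 to 15.22 in KO and 15.09 to 15.17 in WT, so the markers of the labelled tissue were abundant on every array. Of 10 bile duct markers 3 were tested, with a median of -0.44. In a whole liver fewer cells of a type and less RNA per cell cannot be told apart, and the part of these cell types in the class I values was not tested.

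**Figure D4:**
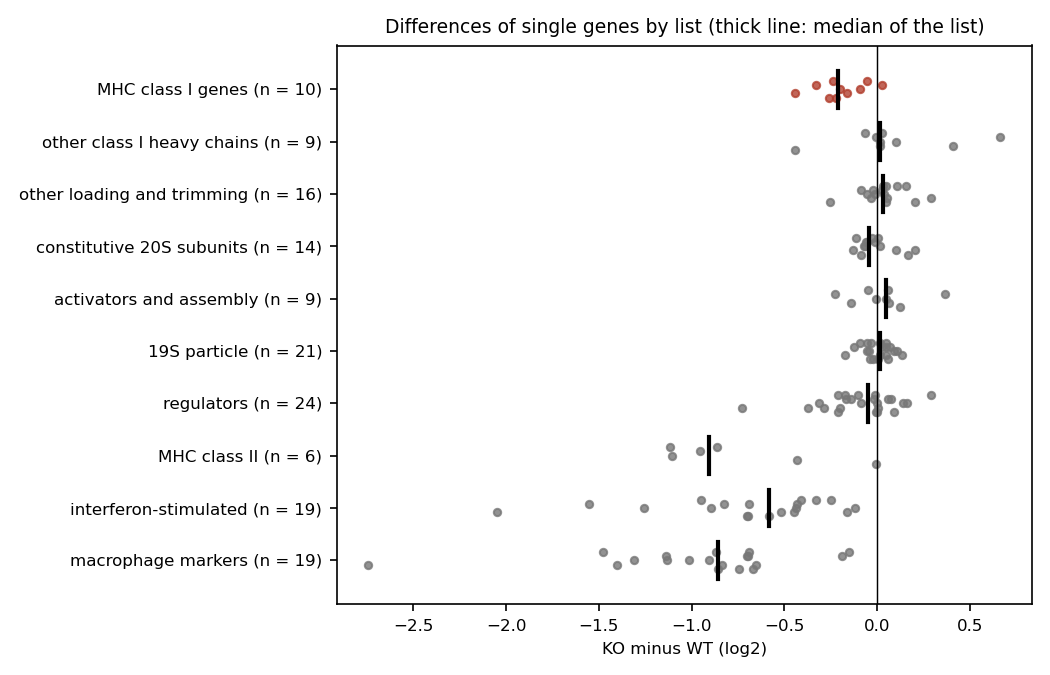
KO minus WT difference (log2) of each tested gene as a point, by list, with the list's median as a thick line and the 10 class I genes in red at the top. Medians of the class I genes and of the MHC class II, interferon-stimulated and macrophage lists are -0.21, -0.91, -0.58 and -0.86, and those of the 6 other lists drawn, of class I, loading, proteasome and regulator genes, lie between -0.05 and 0.05.

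Genes with a profile most like the mean of the 10 class I genes were Naa20, Map4, Sptbn1, Cst3 and Ndufc2. Likeness was the root mean square difference over the 6 arrays after centring each gene, and it was 0.04 to 0.05 log2 units for these 5. The mean class I profile was -0.23, 0.03 and -0.09 on KO 1 to KO 3 and 0.07, 0.21 and 0.02 on WT 1 to WT 3. WT 2 was its highest and KO 1 its lowest array, and KO 2 lay above WT 3. Sptbn1, a spectrin chain, measured 11.36, 11.57 and 11.52 in KO and 11.66, 11.83 and 11.68 in WT, with every KO array below every WT array. Cst3, the protease inhibitor cystatin C, measured 11.91, 12.09 and 12.07 in KO and 12.23, 12.40 and 12.15 in WT, again without overlap. Map4 and Ndufc2 also had every KO array below every WT array, as did 14% of all genes tested, while the groups of Naa20 overlapped. The 5 genes were picked by likeness to a profile that was lower in KO. Among the 5, 0 were called in limma (adjusted p = 0.317 to 0.44).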

How the data were processed

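Liver RNA of 6 mice, 3 KO and 3 WT, was hybridised to 1 array each. The authors deposited log2 values, 1 per probe set and array. R 2.9.1 and GCRMA 2.16.0 are named in the submitters' processing notes. Further GCRMA settings are not given in the sources used here. Log2 was taken as the scale from the range of values (2.185 to 16.327, 28.9% of them at the lowest). Genes reaching 4 on 3 or more arrays were kept, 10009 of 18193. Limma 3.58.1 in R 4.3.3 compared KO with WT by lmFit and eBayes, two-sided and without covariates. P-values were adjusted over all genes kept, and intervals cover 95%.

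The class I genes and all lists were chosen with earlier results of these data known. By rule the text names called genes of a list (otherwise the 3 with the smallest p), the 5 genes of most similar profile, called markers and the 2 brightest markers of a cell type, here given for macrophages. Other names are marked where they appear or are the counterparts of the immunoproteasome subunits. A simulation of KO against WT over 10009 genes changed 50 genes by each fold. Limma recovered 0% of them at 1.25-fold, 32% for 1.5-fold, 84% for 2-fold and 92% for 4-fold, and made 1 false call. Upstream sequences are from RefSeq. Alternatives varied the filter, scaling, probe set choice, floor, variance model, array weights, replicate block and arrays used. Figures were drawn with matplotlib 3.10.9.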

Additional observations from a re-analysis of the deposited data

How the results depend on the processing

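In 18 alternatives 0 class I genes or probe sets were called in limma or the ordinary test (0 to 2 at an unadjusted p under 0.05), and their median stayed below 0. It ran from -0.33 to -0.14 with 1 array left out and was -0.10 without both KO 3 and WT 2 and -0.09 over every probe set, a setting chosen after the data were seen. When probe sets of a gene were averaged, Tap1 did not pass the filter. Small differences changed sign. With median centring B2m was 0.014 and Psmb5 0.007, and with array weights H2-D1 was -0.027. Without KO 3 and WT 2, H2-D1 was -0.133, Tap1 0.057 and Irf1 0.091. With 1 array left out, H2-D1 ran from -0.139 (without KO 3; -0.097 without WT 3) to 0.139, B2m from -0.105 to 0.001 (without KO 2), Tap2 from -0.475 to 0.164 (without KO 1) and H2-Q10 from -0.036 (without WT 1; -0.002 without KO 1) to 0.073. The 17 called genes of the whole table became 3 with no filter, 3 with an ordinary two-sample test, 3 without KO 3 and WT 2, and between 1 and 140 with 1 array left out (140 without KO 3, 6 without KO 1, 5 without WT 3, and 1 each without KO 2, WT 1 or WT 2). With the replicate number as a block, 0 genes were called in limma (1235 at an unadjusted p under 0.05), Lamtor2 among those lost, and the class I median was -0.21. In that setting 2 class I genes had an unadjusted p under 0.05 in limma, Psmb8 (0.0357, adjusted 0.383) and Psmb9 (0.0218, adjusted 0.358). Deviations of same-numbered mice correlated at -0.09, -0.08 and -0.14. With 3 arrays a group such values cannot show whether the numbers pair the mice. With 3 arrays a group, most 1.5-fold changes were missed on simulated data.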
